A study of Mus musculus with 6 samples.

Results

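Described here are 10 pericentral genes of mouse hepatocytes that depend on Wnt/β-catenin signaling: *Glul*, *Slc1a2*, *Oat*, *Rhbg*, *Cyp2e1*, *Lgr5*, *Axin2*, *Tbx3*, *Rnf43* and *Znrf3*. They were chosen by name from a list of known β-catenin targets around the central vein, and each was read from its row of the raw count table, in which all 10 were found among 25184 genes. All 10 passed the filter on low counts, which left 15105 genes for testing. Primary hepatocytes were isolated from chow-fed mice by enzymatic digestion and a density gradient and were kept in culture overnight, and their poly(A) RNA was sequenced with strand retained. Control mice (*Sucnr1* fl/fl) were homozygous for a floxed *Sucnr1*, which encodes the receptor for succinate, and had no Cre. Hep-*Sucnr1* KO mice had the same floxed alleles and 1 copy of Cre under the *Alb* promoter, which the paper describes as hepatocyte-specific. Whether other liver cells kept the gene was not measured here. Each group had 3 libraries, named here fl/fl 1, 2 and 3 and KO 3, 4 and 5 after their replicate numbers. Libraries fl/fl 1 and KO 3 came from extraction day 1 and the other 4 from day 2. The ages of the mice for these libraries are not given in the sources used here. Nothing in the labels ties a library to 1 named mouse, so p values measure the spread between these libraries.

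The liver lobule is zonated: hepatocytes next to the central vein receive Wnt ligands and R-spondins from the endothelium there, and β-catenin with TCF factors keeps a pericentral program active in them. The enzymes and transporters of this program capture ammonia and glutamate as glutamine and oxidize xenobiotics. A second set of targets tunes the signal itself, among them a receptor for R-spondins, a scaffold that promotes the destruction of β-catenin, and ubiquitin ligases that remove Frizzled receptors from the cell surface.

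The promoters of 4 of the enzyme and transporter genes are shown because these genes had the highest levels or, for *Slc1a2*, the largest fold change. The sequences are the bases before the start site in the RefSeq promoter table (GRCm38.p6), cut where exons of the gene itself begin. The windows are *Glul* at chr1:153899679-153899928 (plus strand), *Oat* at chr7:132576399-132576648 (minus strand), *Slc1a2* at chr2:102706188-102706355 (plus strand) and *Cyp2e1* at chr7:140763569-140763738 (plus strand). Capitals mark the short words read by TCF/LEF factors on either strand, which were CTTTGAA with its variant CTTTGAT, and also CTTTGTA with its variant CTTTGTT, whose reverse complements share letters with motifs of nuclear receptors such as HNF4A.
Glul: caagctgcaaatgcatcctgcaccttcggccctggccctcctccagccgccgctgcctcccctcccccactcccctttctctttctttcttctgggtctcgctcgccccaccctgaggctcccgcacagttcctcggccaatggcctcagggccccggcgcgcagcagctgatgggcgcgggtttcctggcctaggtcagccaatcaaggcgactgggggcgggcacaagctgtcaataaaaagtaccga
Oat: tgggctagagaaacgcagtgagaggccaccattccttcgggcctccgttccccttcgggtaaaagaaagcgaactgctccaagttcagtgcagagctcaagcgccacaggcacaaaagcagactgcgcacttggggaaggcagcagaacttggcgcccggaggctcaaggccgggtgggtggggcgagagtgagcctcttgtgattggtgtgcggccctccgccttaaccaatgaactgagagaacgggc
Slc1a2: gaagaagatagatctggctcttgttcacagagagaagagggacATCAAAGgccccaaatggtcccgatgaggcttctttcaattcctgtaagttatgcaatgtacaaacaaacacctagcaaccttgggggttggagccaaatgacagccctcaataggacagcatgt
Cyp2e1: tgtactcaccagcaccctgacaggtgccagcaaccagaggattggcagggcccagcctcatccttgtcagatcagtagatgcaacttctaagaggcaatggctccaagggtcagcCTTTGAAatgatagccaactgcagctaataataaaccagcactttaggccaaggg
The *Slc1a2* window held 1 such word, CTTTGAT on the opposite strand, and the *Cyp2e1* window held 1, CTTTGAA on the same strand. These words began 207 and 135 bases before the start sites of these windows. The *Slc1a2* window lies inside the annotated span of the gene, so its start site is an internal one. The windows of *Glul* and *Oat* held none, nor did the 3 further windows found for *Axin2* and *Rnf43*, so that 2 of 7 windows held a word. Of the 32851 windows of 250 bases in the table, 4874 (14.8%) held at least 1 of these words. A window was found for 6 of the 10 genes. *Lgr5*, *Rhbg*, *Tbx3* and *Znrf3* were not matched.

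Each library held between 30504248 and 38770694 counts. *Sucnr1*, the deleted gene, had 6.71, 3.55 and 3.40 CPM (counts scaled to the library size with TMM factors) in fl/fl 1, 2 and 3 and 2.66, 0.827 and 0.152 CPM in KO 3, 4 and 5. The groups did not overlap, and KO 3 stood much closer to the controls than KO 5. Markers of hepatocytes summed to between 67979 and 101948 CPM per library over 9 genes. The sums were 47.5 to 128 CPM over 13 endothelial, 34.9 to 144 CPM over 9 Kupffer cell and 3.603 to 21.5 CPM over 8 stellate cell markers. Over 8 cholangiocyte markers they were 360 to 658 CPM, mostly from *Spp1* (266 to 526 CPM) and *Sox9* (83.2 to 122 CPM). The cholangiocyte markers *Krt19*, *Krt7* and *Epcam* reached at most 0.890, 0.330 and 2.61 CPM. No list had a marker at 0 in all 6 libraries.

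Levels of the genes are compared per length, as CPM per kb of exon. *Cyp2e1*, the cytochrome P450 that oxidizes ethanol and acetaminophen, had the highest level, with a mean over the 6 libraries of 786 ± 446 CPM per kb (SD, n = 6). *Glul* followed with 173 ± 68.9 CPM per kb and *Oat* with 60.8 ± 44.5 CPM per kb (SD, n = 6). The lowest *Cyp2e1* library lay above the highest *Glul* library, whereas the libraries of *Glul* and *Oat* overlapped. *Cyp2e1* stood at percentile 99.5, *Glul* at 98.2 and *Oat* at 95.5 of the genes tested.

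The other 7 genes lay below 1 CPM per kb on average, and no library of any of them reached the lowest *Oat* library. In descending order they were *Znrf3* with 0.952, *Slc1a2* with 0.844, *Axin2* with 0.787, *Tbx3* with 0.728, *Rnf43* with 0.4995, *Rhbg* with 0.295 and *Lgr5* with 0.179 CPM per kb. Each gene in this order overlapped with the next. The mean of *Slc1a2* was raised by KO 4, at 2.87 CPM per kb, and its SD of 0.999 exceeded the mean. In the controls alone *Slc1a2* averaged 0.409 CPM per kb, below *Axin2* (0.768), *Tbx3* (0.748) and *Rnf43* (0.512). *Lgr5* was at percentile 13.2, with 13 to 93 counts per library, and *Rhbg* at percentile 18.9, with 8 to 44 counts, so counting error weighed most on these genes.

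**Figure D1:**
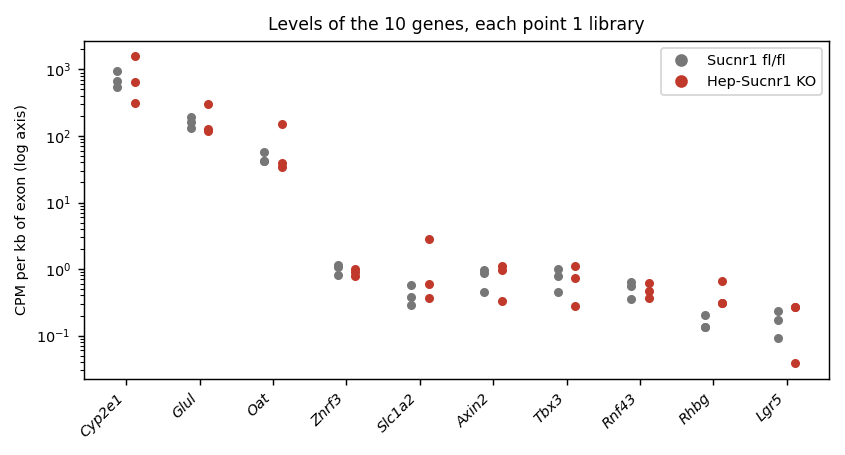
Level of each of the 10 genes in CPM per kb of exon on a log axis, each point 1 library, grey for *Sucnr1* fl/fl and red for Hep-*Sucnr1* KO. *Cyp2e1*, *Glul* and *Oat* stand apart from the other 7 genes, which overlap with their neighbours in the order.

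Of the 10 genes, 7 had a positive and 3 a negative log2 fold change of Hep-*Sucnr1* KO over control hepatocytes, and none passed the test. Over all genes tested, 50.5% had a fold change above 0. The edgeR quasi-likelihood test with extraction day as covariate gave an adjusted p of 0.998 for each of the 10 genes, and 0 of 15105 genes (0%) had an adjusted p below 0.05. At an unadjusted p below 0.05 it gave 1 of the 10 genes, *Rhbg*, and 563 of all genes (3.73%). Even *Sucnr1*, the deleted gene, was not called by edgeR. It stood at −2.23 on the log2 scale, and its p of 0.00444 became 0.998 after adjustment. The absence of calls therefore does not show that the 10 genes were unchanged. On the log2 scale the median over the 10 genes was 0.15, beside 0.003 over all genes tested. With 3 against 3 libraries the exact permutation test cannot give a p below 0.1.

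*Glul* (ENSMUSG00000026473, chr1:153899944-153909723) encodes glutamine synthetase, which joins ammonia to glutamate and marks the innermost pericentral hepatocytes. Gene positions are in GRCm38, the build of the counts. It had 539, 646 and 439 CPM in fl/fl 1, 2 and 3 and 398, 1002 and 423 CPM in KO 3, 4 and 5. KO 4 was the highest library, the other KO libraries were the lowest, and the groups overlapped. The controls averaged 541 ± 104 CPM and the knockouts 608 ± 342 CPM (SD, n = 3 each). Its log2 fold change of 0.12 (standard error 0.36) became −0.39 without KO 4. In bulk RNA, fewer pericentral cells and less RNA of the gene per cell cannot be told apart.

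*Slc1a2* (ENSMUSG00000005089, chr2:102658659-102790784) encodes the glutamate transporter GLT-1, which brings glutamate to the cells that hold glutamine synthetase. It had 3.75, 4.903 and 7.45 CPM in fl/fl 1, 2 and 3 and 7.95, 37.7 and 4.83 CPM in KO 3, 4 and 5. KO 4 stood 6.52 times above the mean of the other 5 libraries, and KO 5 lay within the controls. The log2 fold change of 1.56 (standard error 0.67) was the largest of the 10 genes, with an unadjusted p of 0.0542 from edgeR and an exact permutation p of 0.3 (two-sided, n = 3 each). Without KO 4 it was 0.28.

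*Oat* (ENSMUSG00000030934, chr7:132557478-132576398) encodes ornithine aminotransferase, a mitochondrial enzyme that turns ornithine toward glutamate. It had 100.2, 98.5 and 136 CPM in fl/fl 1, 2 and 3 and 91.8, 354 and 80.5 CPM in KO 3, 4 and 5. The pattern was that of *Glul*, with KO 4 above and the other KO libraries below every control. The fitted log2 fold change was 0.56 (standard error 0.52) and turned to −0.36 without KO 4.

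*Rhbg* (ENSMUSG00000104445, chr3:88242874-88254709) encodes an ammonia transporter of the Rh family. It had 0.260, 0.391 and 0.264 CPM in fl/fl 1, 2 and 3 and 0.601, 1.30 and 0.607 CPM in KO 3, 4 and 5. This was the only one of the 10 genes whose groups did not overlap. Among all genes tested, 10.6% did not overlap in either direction and 6.54% had all KO libraries higher. The controls averaged 0.305 ± 0.0745 CPM and the knockouts 0.836 ± 0.401 CPM (SD, n = 3 each), a difference that did not pass the test.

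*Rhbg* had a fitted log2 fold change of 1.42 (standard error 0.43), an unadjusted p of 0.0134 from edgeR and an exact permutation p of 0.1 (two-sided, n = 3 each), the smallest this design allows. It was 1.01 without KO 4 and 1.67 without KO 5. Within extraction days the log2 ratio of mean CPM was 1.21 for the single pair of day 1 and 1.54 for the 4 libraries of day 2. The counts were 10, 13 and 8 in fl/fl 1, 2 and 3 and 19, 44 and 20 in KO 3, 4 and 5. The annotation places another gene, *Gm38392*, on the same strand over *Rhbg*. It had at most 1 count in a library, and read pairs that match both genes may be missing from either.

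*Cyp2e1* (ENSMUSG00000025479, chr7:140763739-140774987) had 1169, 2078 and 1429 CPM in fl/fl 1, 2 and 3 and 1383, 3430 and 684 CPM in KO 3, 4 and 5. The KO libraries held both the highest and the lowest value, 5.01-fold apart. On the log2 scale the fold change was 0.23 (standard error 0.52), and −0.64 without KO 4.

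*Lgr5* (ENSMUSG00000020140, chr10:115450311-115587780), the receptor for R-spondins, had 1.74, 2.38 and 0.956 CPM in fl/fl 1, 2 and 3 and 2.79, 2.75 and 0.395 CPM in KO 3, 4 and 5. The libraries fl/fl 3 and KO 5, both of day 2, were the lowest of their groups. With a range of 7.06-fold over the 6 libraries, its log2 fold change was 0.18 (standard error 0.67).

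*Axin2* (ENSMUSG00000000142, chr11:108920349-108950783), the scaffold of the destruction complex that Wnt signaling induces as negative feedback, had 5.33, 4.87 and 2.47 CPM in fl/fl 1, 2 and 3 and 6.17, 5.32 and 1.82 CPM in KO 3, 4 and 5. *Tbx3* (ENSMUSG00000018604, chr5:119670669-119684724), a T-box transcription factor and Wnt target, had 5.15, 6.68 and 3.03 CPM in the controls and 4.81, 7.41 and 1.85 CPM in KO 3, 4 and 5. As for *Lgr5*, the libraries fl/fl 3 and KO 5 held the lowest values of both genes. The log2 fold change was 0.04 (standard error 0.42) for *Axin2* and −0.08 (standard error 0.51) for *Tbx3*.

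*Rnf43* (ENSMUSG00000034177, chr11:87662722-87735539) and *Znrf3* (ENSMUSG00000041961, chr11:5276324-5444847) encode the ubiquitin ligases that clear Frizzled receptors. *Rnf43* had 4.16, 3.61 and 2.31 CPM in fl/fl 1, 2 and 3 and 3.10, 4.08 and 2.40 CPM in KO 3, 4 and 5. *Znrf3* had 8.38, 8.96 and 6.36 CPM in fl/fl 1, 2 and 3 and 7.98, 6.17 and 7.23 CPM in KO 3, 4 and 5. The groups overlapped for both, and *Znrf3* was the only one of the 10 genes with its lowest value in KO 4. The log2 fold change was −0.06 (standard error 0.30) for *Rnf43* and −0.15 (standard error 0.18) for *Znrf3*. *Znrf3* varied least of the 10, 1.45-fold between its highest and lowest libraries.

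**Figure D2:**
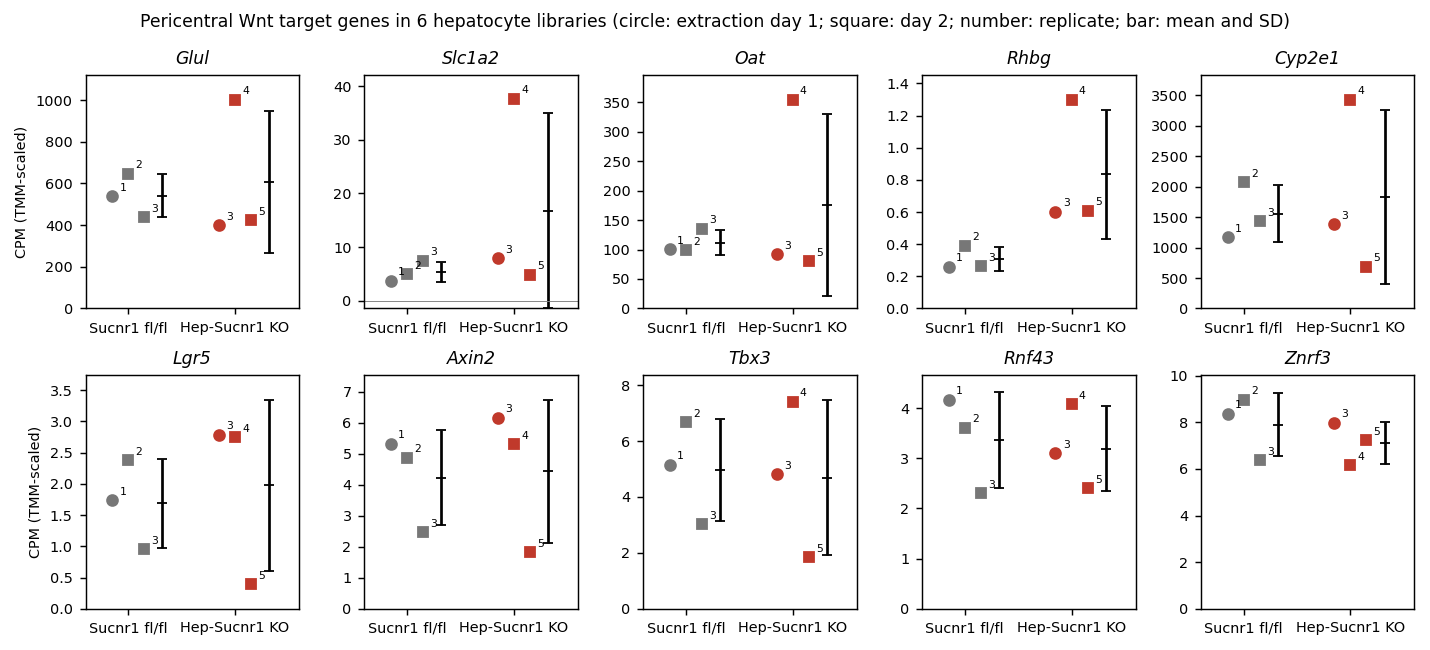
CPM of each gene (TMM-scaled, linear axis) in the 6 libraries, grey for *Sucnr1* fl/fl and red for Hep-*Sucnr1* KO, circles for extraction day 1 and squares for day 2, numbers for replicates, bars for mean and SD of the 3 libraries. In the upper row KO 4 lies above every other library. For *Lgr5*, *Axin2* and *Tbx3* in the lower row, fl/fl 3 and KO 5 are the lowest of their groups.

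KO 4 held the highest value for 6 of the 10 genes, against 19.3% of all genes tested, and the lowest for 1, against 18.4%. KO 5 held the lowest value for 5 of the 10, against 16.7% of all genes. By role, all 5 enzymes and transporters had a positive fold change, with a median of 0.56, and 2 of the 5 Wnt regulators did, with a median of −0.06 on the log2 scale. Without KO 4, 2 of the 10 genes (*Slc1a2* and *Rhbg*) were higher in Hep-*Sucnr1* KO hepatocytes and the median log2 fold change was −0.38. Without KO 5, 9 were higher and the median was 0.53, and without fl/fl 2 all 10 were higher. The direction over the genes thus changed with the single library left out.

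**Figure D3:**
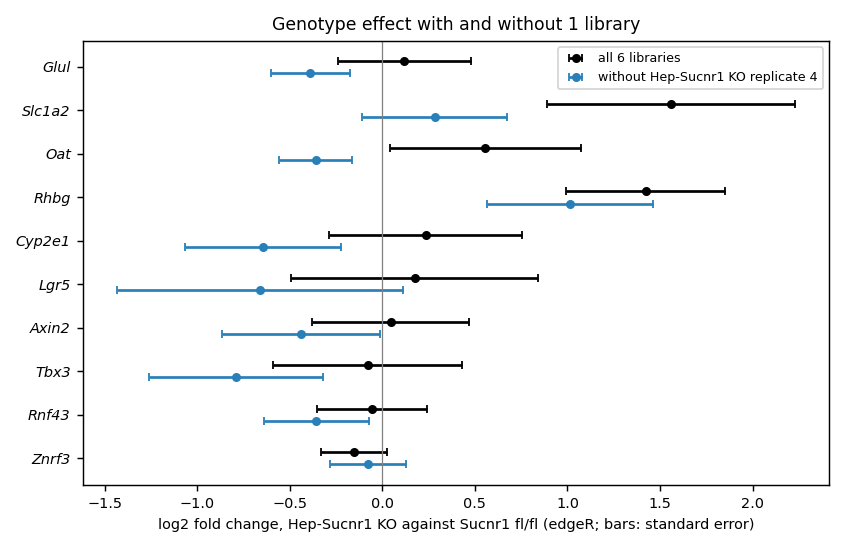
Log2 fold change of each gene, Hep-*Sucnr1* KO over control, from edgeR with all 6 libraries (black) and without KO 4 (blue). Bars are standard errors derived from the fold change and the F statistic. *Slc1a2* and *Rhbg* stay above 0 without KO 4, at 0.28 and 1.01, and the other 8 genes lie below 0.

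Extraction day was the other condition of the design. Between day 2 and day 1, 5 of the 10 genes had a positive and 5 a negative log2 fold change, with a median of 0.17 against 0.02 over all genes tested. None of the 10 had an unadjusted p below 0.05 in edgeR, against 1132 of all genes (7.49%), and 0 of 15105 genes (0%) had an adjusted p below 0.05. The smallest adjusted p of the 10 was 0.867, for *Axin2*, with a log2 fold change of −0.66 (standard error 0.44).

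The difference between the genotype effects of the days passed the edgeR test for none of the 10 genes, at an adjusted p or at an unadjusted p below 0.05, against 0% and 3.69% (557) of all genes. Within day 1, from a single pair of libraries, the log2 ratio of mean CPM was −0.44 for *Glul*, 1.08 for *Slc1a2*, −0.13 for *Oat* and 0.24 for *Cyp2e1*. Within day 2 it was 0.39, 1.78, 0.89 and 0.23 for the same genes. *Glul* and *Oat* thus differed in sign between days, and their interaction had an unadjusted p of 0.305 and 0.386 in edgeR.

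Co-variation was measured as Pearson's r of log2 CPM over the 6 libraries for the 45 pairs of genes. The median r was 0.512 (0.359 without KO 4), and 40 pairs were positive. It was higher among 25 other pericentral genes (0.685, and 0.619 without KO 4) and 18 periportal landmarks (0.764, and 0.771 without KO 4). It was lower among 9 Wnt receptors (0.432), 7 further feedback and target genes (0.136) and 15 genes of the β-catenin complexes (−0.026). Co-variation was thus not particular to the 10 genes. An exact permutation test over the 720 orders of the libraries gave an unadjusted p below 0.05 for 9 pairs by r and for 0 by Spearman's rho. After adjustment over the 45 pairs none passed, and the smallest adjusted p was 0.243. The 10 genes share library depth and scaling in each library. Dividing the genes by role was done with these patterns known, and the medians below carry no test.

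Among the 5 enzymes and transporters the median r was 0.784 over 10 pairs and became 0.158 without KO 4. *Slc1a2* and *Oat* had the highest r, 0.932 (exact permutation p = 0.0486, adjusted 0.243), with rho 0.429 (exact permutation p = 0.419, adjusted 0.899). Their r was 0.522 without fl/fl 1 and KO 4, the libraries farthest from the median of *Slc1a2*. For *Glul* and *Cyp2e1*, r was 0.839 (exact permutation p = 0.0389, adjusted 0.243) and rho 0.714 (exact permutation p = 0.136, adjusted 0.725), and r fell to 0.0429 without fl/fl 2 and KO 4. For *Glul* and *Oat*, r was 0.827 (exact permutation p = 0.0639, adjusted 0.254) and rho 0.714 (exact permutation p = 0.136, adjusted 0.725), and r was 0.188 without the same pair of libraries. *Glul* and *Slc1a2* went from 0.699 to −0.621 without KO 4. *Slc1a2* and *Rhbg* had an r of 0.811 (exact permutation p = 0.0458, adjusted 0.243) and a rho of 0.60 (exact permutation p = 0.242, adjusted 0.725), and an r of −0.210 without fl/fl 1 and KO 4. For *Oat* and *Cyp2e1*, r was 0.814 (exact permutation p = 0.0458, adjusted 0.243) and rho 0.714 (exact permutation p = 0.136, adjusted 0.725), and r was 0.796 without fl/fl 3 and KO 4. Without KO 4 alone, 6 of the 10 pairs stayed positive, with the highest r for *Glul* and *Cyp2e1* (0.580) and for *Oat* and *Cyp2e1* (0.5003).

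Among the 5 Wnt regulators the median r was 0.799 over 10 pairs, 0.830 without KO 4 and 0.712 without KO 5. *Lgr5* and *Axin2* had the highest r of all pairs, 0.961 (exact permutation p = 0.0111, adjusted 0.243), with rho 0.829 (exact permutation p = 0.0583, adjusted 0.725). *Lgr5* and *Tbx3* had an r of 0.948 (exact permutation p = 0.0139, adjusted 0.243) and a rho of 0.657 (exact permutation p = 0.175, adjusted 0.725). Without fl/fl 3 and KO 5, which lay farthest from the median of *Lgr5*, these r were 0.359 and 0.317. *Axin2* and *Tbx3* went from an r of 0.901 (exact permutation p = 0.0306, adjusted 0.243) and a rho of 0.486 (exact permutation p = 0.356, adjusted 0.842) to an r of −0.690 without the same libraries. *Tbx3* and *Rnf43* went from an r of 0.869 (exact permutation p = 0.0292, adjusted 0.243) and a rho of 0.771 (exact permutation p = 0.103, adjusted 0.725) to an r of 0.465. All 4 of these relations were weaker or reversed without fl/fl 3 and KO 5.

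Between the groups of 5 the median r was 0.391 over 25 pairs. *Cyp2e1* was the enzyme closest to the regulators, with an r of 0.858 to *Tbx3* (exact permutation p = 0.0292, adjusted 0.243) and a rho of 0.771 (exact permutation p = 0.103, adjusted 0.725), and an r of 0.934 without fl/fl 3 and KO 5. *Slc1a2* and *Znrf3* had the lowest r, −0.708 (exact permutation p = 0.0736, adjusted 0.254), with rho −0.600 (exact permutation p = 0.242, adjusted 0.725) and an r of −0.403 without fl/fl 1 and KO 4. With log2 CPM centred within genotype the median over the 45 pairs was 0.613, and centred within extraction day it was 0.622.

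**Figure D4:**
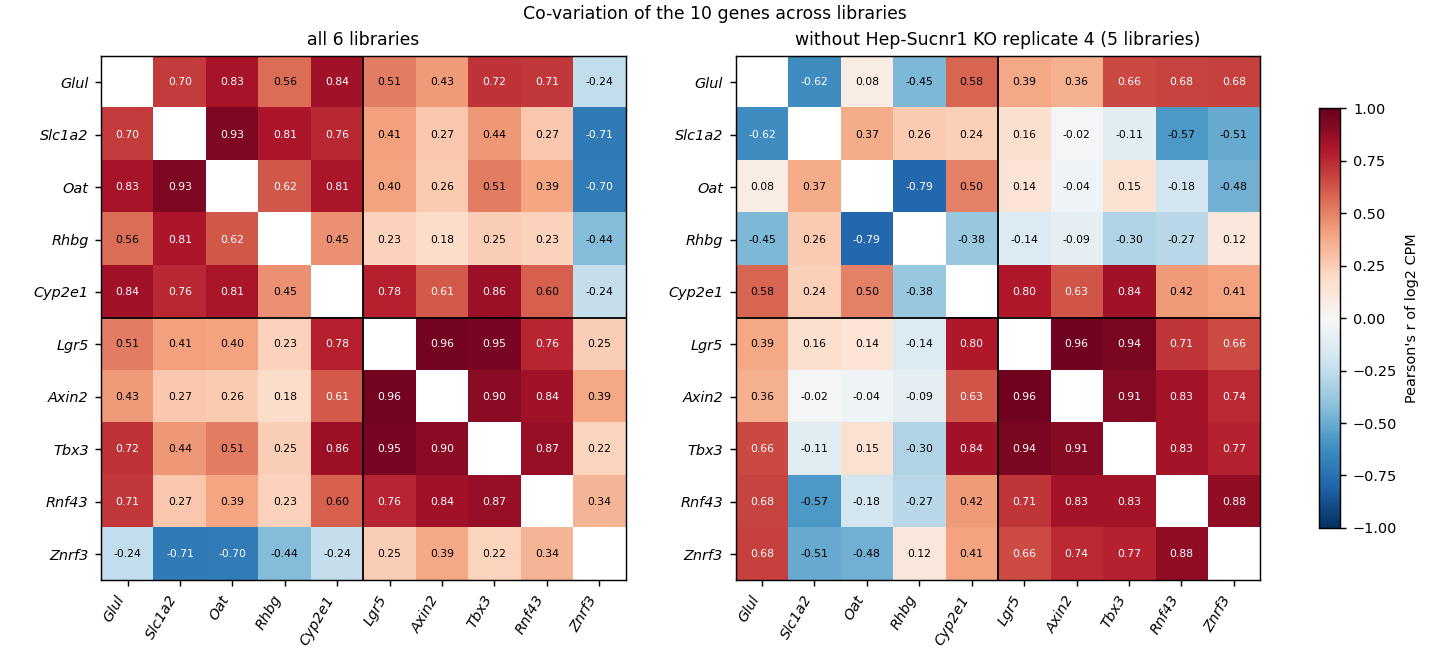
Pearson's r of log2 CPM between the 10 genes, over all 6 libraries (left) and without KO 4 (right), red for positive and blue for negative, with lines between the enzymes and transporters and the Wnt regulators. Without KO 4 the upper left block goes from 10 to 6 positive pairs of 10 and from a median of 0.784 to 0.158, and the lower right block keeps a median of 0.830.

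The genes whose pattern was most like that of *Glul* were ranked by Pearson's r of log2 CPM over the 6 libraries among 11716 genes with a mean of at least 1 CPM, as a description. The 5 highest were *Mdfic* (0.991), *Ttc7b* (0.990), *9330162012Rik* (0.982), *Cyp4f13* (0.975) and *Clp1* (0.974). The 3 lowest were *Hddc2* (−0.996), *Commd8* (−0.986) and *Smyd2* (−0.981). An r of at least 0.8 was found for 407 genes (3.47%), and of the other 9 members for *Oat* and *Cyp2e1*. A high r says nothing of the size of the movement: among these 5 genes *Cyp4f13* ranged from 35.4 CPM in KO 3 to 41.5 CPM in KO 4 and *Clp1* from 26.1 CPM in KO 5 to 50.1 CPM in KO 4, where *Glul* ranged 2.52-fold.

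Other genes of the Wnt pathway were read from lists that partly overlap. Of 7 further feedback and target genes tested, 4 had a positive and 3 a negative fold change, with a median of 0.06 on the log2 scale and an unadjusted p below 0.05 for none. Without KO 4, 1 of the 7 was positive, and without KO 5 all 7 were. *Nkd1*, an inhibitor of Dishevelled, had the highest value, 0.42 (standard error 0.76), and *Tcf7*, a TCF factor, the lowest, −0.19 (standard error 0.34). *Notum*, a secreted Wnt deacylase, had 7.62, 11.2 and 7.12 CPM in fl/fl 1, 2 and 3 and 7.38, 12.9 and 5.22 CPM in KO 3, 4 and 5, and was chosen for mention after its values were seen. Its highest libraries were those of *Glul*.

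Of 15 genes of the β-catenin transcription and destruction complexes, 5 were positive and 10 negative, with a median of −0.11 and none with an unadjusted p below 0.05. *Bcl9*, a coactivator of β-catenin, had the highest log2 fold change, 0.49 (standard error 0.23), and *Apc*, a scaffold of the destruction complex, the lowest, −0.25 (standard error 0.13). Of 9 receptors, 2 were positive and 7 negative, with a median of −0.22, and 3 of the 7 (*Fzd4*, *Lrp6* and *Fzd8*) had an unadjusted p below 0.05 in edgeR. On day 2 alone 4 of the 9 were positive. *Fzd4* had the lowest value, −0.61 (standard error 0.24), and *Lrp5* the highest, 0.14 (standard error 0.13). Of the 6 listed Wnt and R-spondin ligands of liver endothelium, 5 were in the table and 2 passed the filter. *Wnt5a* was at 0.25 (standard error 0.31) and *Rspo3* at −0.64 (standard error 0.67) as log2 fold changes, and none of the 5 exceeded 38 counts in a library.

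Other cell types of the liver left small traces in the libraries. Of 13 endothelial markers, 12 had a negative fold change, with a median of −0.26 on the log2 scale, and 1, *Thbd*, an unadjusted p below 0.05 in edgeR. The endothelial direction turned on day 2 alone, with 7 of 13 positive and a median of 0.12. It also turned with index series as a further term, with 8 positive and a median of 0.30. Index series is a division made here by index number, not a batch that the labels name. That term set the KO libraries against fl/fl 3 alone, the only control of their index series. All 9 Kupffer cell markers were negative, with a median of −0.40, but on day 2 alone 8 were positive, with a median of 0.18, and without the day covariate 4 were. Summed, the Kupffer cell markers were at 72.3, 47.1 and 144 CPM in fl/fl 1, 2 and 3 and at 34.9, 113 and 105 CPM in KO 3, 4 and 5. In KO 3, *Cd68* alone gave 29.0 of the 34.9 CPM. The endothelial markers summed to 128, 77.0 and 73.1 CPM and to 47.5, 81.1 and 73.3 CPM. Of 5 stellate cell markers tested 4 were negative (1 with index series as a further term), and of 7 cholangiocyte markers 3 (6 with that term). The part of these cells in the values of the 10 genes was not tested.

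Of 25 other pericentral genes, 21 had a positive and 4 a negative log2 fold change, with a median of 0.36, and 1 had an unadjusted p below 0.05 in edgeR. That gene, *Slc13a3*, a transporter of dicarboxylates such as succinate, had 1.17, 2.86 and 2.704 CPM in fl/fl 1, 2 and 3 and 6.39, 18.9 and 2.34 CPM in KO 3, 4 and 5. Its groups overlapped through KO 5, as for *Slc1a2*, and its log2 fold change was 2.09 (standard error 0.68, adjusted p = 0.998 from edgeR). KO 4 held the highest value of 19 of the 25 and KO 5 the lowest of 16. Without KO 4, 7 of the 25 were positive and the median was −0.13. Without KO 5, 23 were positive, the median was 0.66 and 15 had an unadjusted p below 0.05 in edgeR, with an adjusted p below 0.05 for none. Over all genes tested without KO 5, 832 of 15064 had an unadjusted p below 0.05 in edgeR. *Slc16a10*, an aromatic amino acid transporter, had the lowest log2 fold change, −0.18 (standard error 0.25).

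Of 18 periportal landmarks, 4 were positive and 14 negative, with a median of −0.08 and an unadjusted p below 0.05 in edgeR for 2, *Hsd17b6* and the Notch target *Hes1*. KO 4 held the highest value of 0 of the 18 and the lowest of 11, and KO 5 the highest of 9 and the lowest of 0. All 5 enzymes and transporters around *Glul* were highest in KO 4, and *Oat* and *Cyp2e1* were lowest in KO 5. Without KO 4, 14 of the 18 landmarks were positive and the median was 0.06, without KO 5, 17 were negative and the median was −0.37, and on day 2 alone 9 were positive and 9 negative. *Hsd17b6*, a steroid dehydrogenase, had the lowest log2 fold change, −0.99 (standard error 0.33), and *Aldh1b1*, a mitochondrial aldehyde dehydrogenase, the highest, 0.27 (standard error 0.29).

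Of 18 genes of glutamine and glutamate handling outside the members, 7 were positive and 11 negative, with a median of −0.07 and an unadjusted p below 0.05 for none. *Slc1a1*, another glutamate transporter, had the highest log2 fold change, 0.73 (standard error 0.57) at 3 to 13 counts per library, and *Pycr1*, an enzyme of proline synthesis, the lowest, −0.55 (standard error 0.46). KO 4 held the highest value of 4 of these 18 genes and the lowest of 4.

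**Figure D5:**
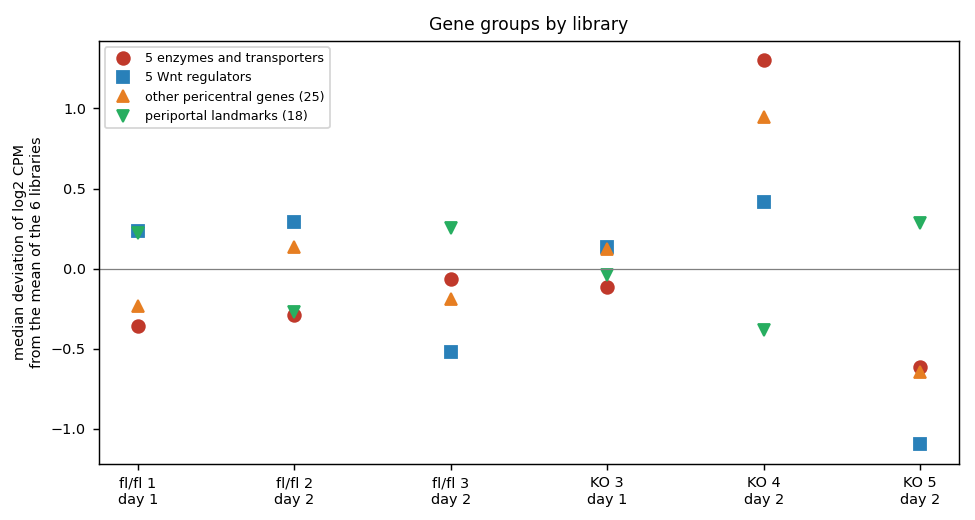
Median over the genes of a group of how far log2 CPM lay from its mean over all 6, by library, for the 5 enzymes and transporters (red circles), the 5 Wnt regulators (blue squares), 25 other pericentral genes (orange triangles) and 18 periportal landmarks (green inverted triangles). In KO 4 the enzymes and transporters are at 1.30 and the periportal landmarks at −0.38, and in KO 5 the Wnt regulators are at −1.10 and the periportal landmarks at 0.29.

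By library, the enzymes and transporters stood between −0.36 and −0.07 in the 3 controls and at −0.11, 1.30 and −0.61 in KO 3, 4 and 5, as median deviations on the log2 scale. The Wnt regulators were at 0.23, 0.29 and −0.52 in fl/fl 1, 2 and 3 and at 0.14, 0.42 and −1.10 in KO 3, 4 and 5. The spread between the KO libraries exceeded the difference between the genotypes for both groups.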

How the data were processed

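Read pairs from 6 libraries of primary mouse hepatocytes were trimmed by the authors with Trim Galore 0.6.7, aligned to GRCm38 with STAR 2.7.10a and counted per gene of the Ensembl annotation with featureCounts, using strand. The values deposited are these raw counts, without normalization, for 25184 genes. How pairs that match several genes were counted is not stated, so genes with near-identical copies or overlapping neighbours are uncertain.

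The 15105 genes whose DESeq2-normalized counts averaged above 5 were tested for genotype with edgeR 4.0.16 (R 4.3.3), using TMM factors and the quasi-likelihood test, with extraction day as covariate. P values were adjusted by Benjamini-Hochberg over all genes tested and called below 0.05. The standard errors printed were derived as the absolute log2 fold change divided by the square root of the F statistic of the test. The fit was checked on simulated counts with the same biological coefficient of variation for every gene and no effect of day. That check does not bear on libraries that stand apart, such as KO 4. DESeq2 1.42.0, other scalings, filters and covariates, day 2 alone and each library left out were tried as alternatives. The labels' library names carry an index number and name no batch. The paper describes the same index set and a common pool for the 6 libraries. For an alternative fit the libraries were divided here by that number into 2 index series. The first holds fl/fl 1 and 2 and the second fl/fl 3 and KO 3, 4 and 5. A fit with index series as a further term thus sets the KO libraries against fl/fl 3 alone. Log2 CPM for correlations had a prior count of 2. The common biological coefficient of variation was 0.206.

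Symbols and exon lengths came from a GRCm38 annotation of an older release, and 88 identifiers had no symbol. Named were the 10 members, *Sucnr1*, the 5 genes most and 3 least like *Glul*, and the highest and lowest log2 fold change of each list. *Lrp6*, *Fzd8*, *Hes1*, *Notum*, *Sox9*, *Krt19*, *Krt7* and *Epcam* were named in addition, after their values were seen. In the lists of hepatocyte markers, feedback genes, receptors, ligands and glutamine handling, 1 gene each matched no row. The members and lists were chosen with earlier results of these data known.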

Additional observations from a re-analysis of the deposited data

How the results depend on the processing

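The number of genes called for genotype was 0 by edgeR under each scaling, filter, covariate and left-out library. It was 13 by the DESeq2 Wald test, none of them among the 10 members. Of the members, DESeq2 gave an adjusted p for genotype only to *Glul*, *Oat* and *Cyp2e1*, so the other members could not be called there. For extraction day it was 0, but 227 by DESeq2, 122 without the filter on low counts and between 0 and 29 with 1 library left out (29 without fl/fl 2), again with none of the members. The cause of these differences was not tested. The median log2 fold change of the members, 0.15, lay between 0.11 and 0.63 under the other alternatives and between −0.38 and 0.53 with 1 library left out. The adjusted p of *Slc1a2* ranged from 0.448 to 1.000 and that of *Rhbg* from 0.695 to 1.000 over the alternatives by edgeR.

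With index series as a further term the log2 fold change turned positive for *Tbx3* (0.67), *Rnf43* (0.45) and *Znrf3* (0.13), so that all 10 were positive. All KO libraries belonged to the second series, so this fold change rested on fl/fl 3 as the only control there. With day 2 alone it turned to −0.10 for *Lgr5*, −0.057 for *Axin2* and 0.12 for *Rnf43*. With 1 library left out it ranged from −0.39 to 0.39 for *Glul*, from 0.28 to 2.02 for *Slc1a2*, from −0.36 to 0.90 for *Oat*, from 1.01 to 1.67 for *Rhbg*, from −0.64 to 0.66 for *Cyp2e1*, from −0.66 to 0.70 for *Lgr5*, from −0.44 to 0.39 for *Axin2*, from −0.79 to 0.31 for *Tbx3*, from −0.36 to 0.13 for *Rnf43* and from −0.27 to 0.0104 for *Znrf3*. Without fl/fl 1 or KO 3, the day covariate absorbed the 1 library left on day 1, so these fits nearly repeated day 2 alone. For *Glul* they gave 0.394 and 0.382, against 0.382 on day 2 alone. In the other fits, where 1 library was left of a genotype on a day, it was assumed to vary like the others.

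The median r over the 45 pairs, 0.512, was 0.257 with Spearman's rho, 0.622 centred within extraction day, 0.613 centred within genotype, 0.675 on day 2 alone and between 0.359 (without KO 4) and 0.610 (without fl/fl 1) with 1 library left out. No paired analysis was possible because the groups share only 1 replicate number. Depth limits *Lgr5* and *Rhbg*, at 13 and 8 counts in their lowest libraries.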

Other observations

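Some genes that overlap the members in the annotation were also counted. *Tbx3os1*, an antisense RNA of *Tbx3*, had 4, 18 and 3 counts in fl/fl 1, 2 and 3 and 19, 37 and 2 counts in KO 3, 4 and 5. It shared with *Tbx3* its highest library, KO 4. Its lowest libraries were KO 5, fl/fl 3 and fl/fl 1, at 2, 3 and 4 counts. *Tbx3* was also lowest in KO 5 and fl/fl 3, but in fl/fl 1 it had 5.15 CPM, above the 4.81 CPM of KO 3. *1110028F11Rik*, an intronic transcript on the strand of *Rnf43*, had 12, 9 and 10 counts in fl/fl 1, 2 and 3 and 15, 29 and 5 counts in KO 3, 4 and 5, so that KO 4 was again the highest library and KO 5 the lowest. *Fgfr2*, a growth factor receptor that overlaps *Oat* on the same strand, had 54.5, 31.3 and 52.8 CPM in fl/fl 1, 2 and 3 and 27.7, 25.3 and 54.1 CPM in KO 3, 4 and 5. Its lowest library was KO 4, where *Oat* was highest. These genes were chosen for their positions, and no test was made of them.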
